A study of Homo sapiens with 2 samples.

Results

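The SLITRK family (SLIT and NTRK like) consists of 6 human genes, SLITRK1 to SLITRK6, and its transcripts were read in SK-N-MC cells that had been made to overexpress melanotransferrin. The members were taken as every probe set annotated to a single SLITRK gene, which gave 10 of 41097 single-gene probe sets and 6 of 19775 genes. The family was chosen by the higher SLITRK6 signal in the clone on these same arrays, which was already known, so the ratios below are a description and carry no test.

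The study had 2 samples. One was hyperexpression clone 4, an SK-N-MC line stably transfected with the human melanotransferrin cDNA (MTf, gene symbol MELTF) in the pCMV-Script vector. The other was vector control 1, SK-N-MC cells stably transfected with pCMV-Script alone. SK-N-MC is a human tumour line labelled as neuroepithelioma and now assigned to the Ewing tumour family. Total RNA of each line was hybridised to 1 Affymetrix U133 Plus 2.0 array. Each group was thus 1 array of 1 line, and no SD over replicates, p-value or test between the groups can be given. The effect of the insert and the difference between 2 separately derived lines cannot be told apart.

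SLITRK proteins span the cell membrane once. Outside the cell they carry leucine-rich repeats like those of the axon guidance proteins SLIT. In most members, though not SLITRK1, the intracellular tail resembles that of the neurotrophin receptors encoded by the NTRK genes. On neurons they act as postsynaptic adhesion molecules: their repeats bind presynaptic receptor phosphatases of the LAR type (PTPRD, PTPRF and PTPRS), and this contact promotes synapse formation. SLITRK3 is known from mouse neurons as an organiser of inhibitory synapses. In mice, SLITRK5 is known for its role in the striatum and for its contact with the BDNF receptor NTRK2. SLITRK6 is needed in the inner ear and the eye, and loss of the human gene causes deafness with myopia.

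SLITRK3, SLITRK5 and SLITRK6 are the members with measurable signal, so the 250 bases upstream of their outermost annotated start are shown, 5′ to 3′ on the gene's strand. Capitals mark a match to 1 of 4 short motifs described next. The windows are chr3:165197110-165197359 (minus strand) for SLITRK3, chr13:87671121-87671370 (plus strand) for SLITRK5 and chr13:85799420-85799669 (minus strand) for SLITRK6, from RefSeq on GRCh38.p14.
SLITRK3: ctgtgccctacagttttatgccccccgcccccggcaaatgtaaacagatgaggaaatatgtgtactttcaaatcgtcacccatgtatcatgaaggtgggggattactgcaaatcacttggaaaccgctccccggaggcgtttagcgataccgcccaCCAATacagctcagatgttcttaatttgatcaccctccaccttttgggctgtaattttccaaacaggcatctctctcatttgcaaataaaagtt
SLITRK5: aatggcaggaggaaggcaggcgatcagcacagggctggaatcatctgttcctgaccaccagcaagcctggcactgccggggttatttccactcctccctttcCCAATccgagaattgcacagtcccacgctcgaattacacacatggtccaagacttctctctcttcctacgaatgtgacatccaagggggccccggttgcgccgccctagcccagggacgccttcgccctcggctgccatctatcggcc
SLITRK6: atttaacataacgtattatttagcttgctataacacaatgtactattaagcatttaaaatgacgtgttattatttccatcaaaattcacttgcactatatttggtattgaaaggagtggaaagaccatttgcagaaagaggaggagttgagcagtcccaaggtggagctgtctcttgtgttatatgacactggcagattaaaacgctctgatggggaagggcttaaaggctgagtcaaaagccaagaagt

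The 3 upstream windows differed in base composition. The SLITRK6 window was 37.6% G and C with 3 CpG dinucleotides, a lower share than in most promoters: 9.51% of all 35116 promoter windows had as low a share or lower. The SLITRK3 window was 46.4% G and C with 8 CpG, and the SLITRK5 window 59.2% with 13 CpG, against medians of 58% and 11 CpG over all windows. All 4 motifs were searched for on both strands. The TATA-type motif TATAAA is present in 10.7% of all windows. The E-box CACGTG is present in 6.34%, and a tandem pair of GGAA, the repeat unit bound by EWSR1-FLI1 in Ewing tumours, in 3.06%. The motif CCAAT began 94 bases before the start of SLITRK3 and 148 bases before that of SLITRK5, and is present in 32.0% of all windows. None of these motifs overlapped another in the 3 windows shown. No match to any of the 4 motifs was present in the SLITRK6 window. RefSeq lists further starts for SLITRK3, SLITRK5, SLITRK1 and SLITRK4, and 2 of the 12 windows of the family held a match. These letters alone do not identify a binding site, and the array does not show which start was used.

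Melanotransferrin itself read 4449.4 on the clone array and 18.4 on the control array on 1 of its 4 probe sets, a ratio of 21.4 or more against the floor described next. Its other 3 probe sets did not show this, and 1 of them read 209.3 in the clone and 245.8 in the control. Signals are the deposited linear intensities, scaled so that both arrays had the same trimmed mean of 1000.12. A signal of 208 served as the floor of measurement. It was the 90th percentile of the 382 signals from 191 negative probe sets, whose genes (olfactory receptors, bitter taste receptors, hair keratin-associated proteins) this line should not express. These probe sets had a median of 44.0 on the clone array and 67.4 on the control array. Of the 18 spikes added at hybridisation, 18 read lower in the clone and their median ratio was 0.706. Of the 24 poly-A spikes, 24 read higher in the clone and their median ratio was 1.53. All directions below are thus relative to the mean signal to which each array was scaled.

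The family split into 3 genes with signal and 3 without. SLITRK3, SLITRK5 and SLITRK6 lay above the floor on both arrays and each read higher in the melanotransferrin clone, by 1.95-fold, 2.64-fold and 1.86-fold on its brightest probe set. SLITRK1, SLITRK2 and SLITRK4 lay below the floor on both arrays on every probe set. As counted by size, 3 of the 6 members were at least 1.5-fold higher and 1 at least 2-fold higher, and 0 were at least 1.5-fold lower. Over all 12663 measured genes, 5.38% were at least 1.5-fold higher and 1.21% at least 2-fold higher. At least 1.5-fold lower were 8.43%, and 1.9% at least 2-fold lower. These shares include bounds, from 442 genes above the floor in the clone alone and 1426 in the control alone. Of the genes above the floor on both arrays, 5.27% were at least 1.5-fold higher and 5.92% at least 1.5-fold lower. Because SLITRK6 led to the choice of the family, nothing is read from the members' count against these shares.

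**Figure D1:**
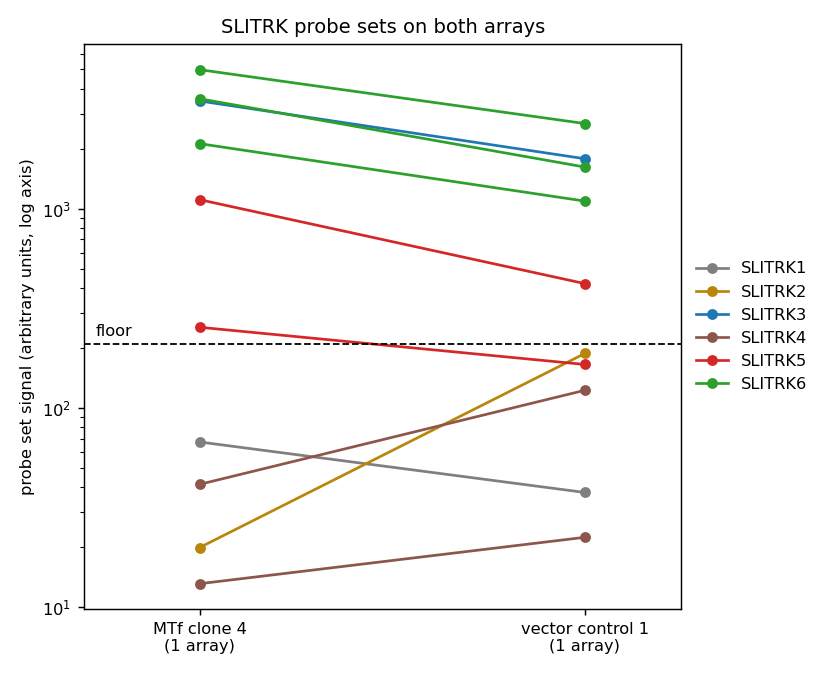
Signal of each of the 10 SLITRK probe sets (log axis, arbitrary units) in the melanotransferrin clone and the vector control, 1 array each; a line joins the same probe set and the dashed line is the floor of 208. The 5 probe sets that reach the floor on each array belong to SLITRK3, SLITRK5 and SLITRK6 and all read higher in the clone.

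SLITRK6 was the member with the most probe sets, and all 3 of them reached the floor on each array. Probe set 232481_s_at read 4978 in the clone and 2670.9 in the control, 1.86-fold higher. Probe set 232176_at read 3557.7 in the clone and 1615.5 in the control, 2.20-fold higher. Probe set 235976_at read 2117.3 in the clone and 1090 in the control, 1.94-fold higher. The clone value was the higher one on every SLITRK6 probe set, and the 3 log2 ratios of 0.90, 1.14 and 0.96 had an SD of 0.13. Over 1532 genes whose dimmest probe set had a mean signal between 1000 and 4000, the pooled SD of log2 ratios within a gene was 0.27, so the SLITRK6 probe sets lay close together. This SD covers disagreement between probe sets on the same RNA and arrays, and leaves out the variation between cultures, clones and hybridisations. The name of 232481_s_at marks it as a probe set that can share sequence with other transcripts, and the 2 probe sets without that mark gave the 2 larger ratios.

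SLITRK5 had the largest ratio of the family. Probe set 214930_at read 1108.4 in the clone and 420.1 in the control, 2.64-fold higher, a log2 ratio of 1.40. Its other probe set, 215469_at, read 253.7 in the clone and 165 in the control. That control value was below the floor, so the second ratio is a bound of at least 1.22-fold. Both probe sets thus read higher in the clone as deposited, but the size rests on 1 of them. Of the measured genes, 34 had a ratio at least as high as SLITRK5, or 0.268%. Its signal lay in a range where probe sets disagree more: over 2868 genes whose dimmest probe set had a mean signal between 300 and 1000, the pooled SD within a gene was 0.38 on the log2 scale.

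SLITRK3 was measured by 1 probe set, annotated to a RefSeq transcript of the gene. Probe set 206732_at read 3467.1 in the clone and 1778.4 in the control, 1.95-fold higher, a log2 ratio of 0.96. Of the measured genes, 175 had a ratio at least as high, or 1.38%, against 211 (1.67%) for SLITRK6. No second probe set stands behind this value. Elsewhere on these arrays, 57 genes whose brightest probe set was at least 1.9-fold higher had another probe set that reached the floor on each array. That second probe set was higher in the clone in 46 of the 57 and at least 1.5-fold higher in 21, with a median log2 ratio of 0.36.

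**Figure D2:**
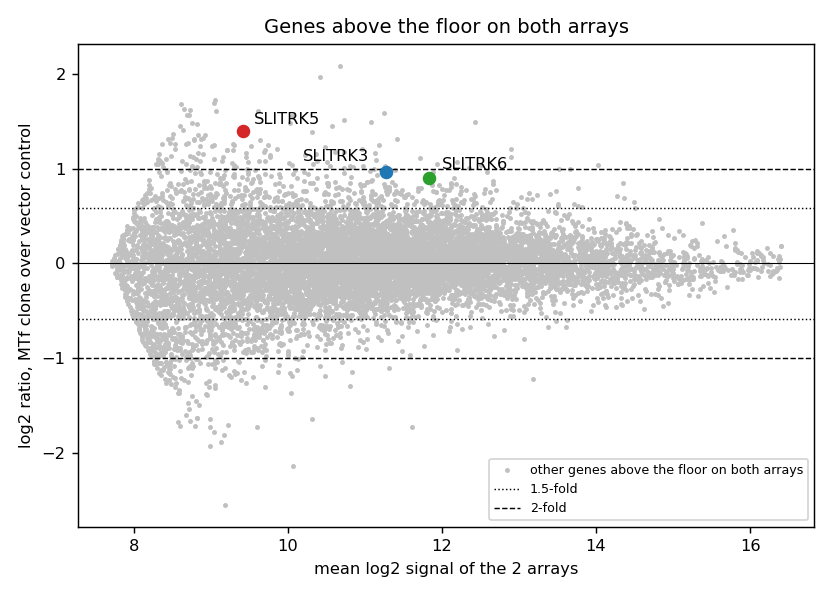
Log2 ratio of the melanotransferrin clone over the vector control against the mean log2 signal for the 10795 genes above the floor on both arrays, each by its brightest probe set. SLITRK3, SLITRK5 and SLITRK6 (coloured) lie above the dotted 1.5-fold line, and SLITRK5 alone of the 3 lies above the dashed 2-fold line.

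The other 3 members gave no measurable signal. SLITRK1, which in cultured neurons promotes neurite growth, read 67.4 in the clone and 37.6 in the control on its 1 probe set. SLITRK2, an X-linked gene linked to intellectual disability, read 19.9 in the clone and 187.4 in the control on its 1 probe set. SLITRK4, also X-linked, read 41.3 in the clone and 122.5 in the control on its brighter probe set, and 13.1 in the clone and 22.4 in the control on the other. SLITRK2 and SLITRK4 thus had the lower values in the clone and SLITRK1 the higher one, all under the floor. No ratio is given for values at this level, which the negative probe sets also reach. The SLITRK2 control value of 187.4 was the nearest to the floor from below, and the SLITRK5 clone value of 253.7 on its second probe set was the nearest from above.

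Measured and unmeasured members lay side by side on chromosome 13. SLITRK1, SLITRK6 and SLITRK5 lie on chromosome 13 in that order with few annotated genes between them, SLITRK4 and SLITRK2 lie near each other on the X chromosome, and SLITRK3 lies on chromosome 3. Among genes with a single-gene probe set, SLITRK6 directly follows SLITRK1, and the host transcript MIR4500HG alone stands between SLITRK6 and SLITRK5. MIR4500HG read 5.7 in the clone and 23.4 in the control. SPRY2, which encodes an inhibitor of receptor tyrosine kinase signalling and lies 2 places before SLITRK1, read 358.2 in the clone and 252.2 in the control, 1.42-fold higher. The long non-coding RNA genes LINC00382 and LINC00564 before SLITRK1, and LINC00397, LINC00560 and the pseudogene SP3P after SLITRK5, were all below the floor on both arrays. In that stretch SPRY2, SLITRK6 and SLITRK5 were the genes with signal, and each read higher in the clone.

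Genes of chromosome 13 as a whole read slightly higher in the clone. Without SLITRK5 and SLITRK6, the 207 genes of this chromosome above the floor on both arrays had a median log2 ratio of 0.13, against 0.0089 over all 10792 such genes outside the family. At least 1.5-fold higher were 6.28% of them, against 5.24% of all. Whether this shift has a part in the SLITRK5 and SLITRK6 ratios was not tested. On chromosome 3 the median over 578 genes without SLITRK3 was 0.0048. The nearest gene on one side of SLITRK3 is BCHE, which encodes butyrylcholinesterase and read 2650.1 in the clone and 2132.1 in the control, 1.24-fold higher. The other named neighbours of SLITRK3 (LINC01192, SI, LINC02023, ZBBX and SERPINI2) were below the floor on both arrays. Around the X-linked pair, UBE2NL read 2263.1 in the clone and 2043.6 in the control. FMR1, which encodes the RNA-binding protein lost in fragile X syndrome, read 10194.7 in the clone and 7849.3 in the control, a log2 ratio of 0.38. AFF2 read 21.5 in the clone and 216.1 in the control, the second value just above the floor. MAGEC1, MAGEC2, MAGEC3 and FMR1NB were below the floor on both arrays.

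**Figure D3:**
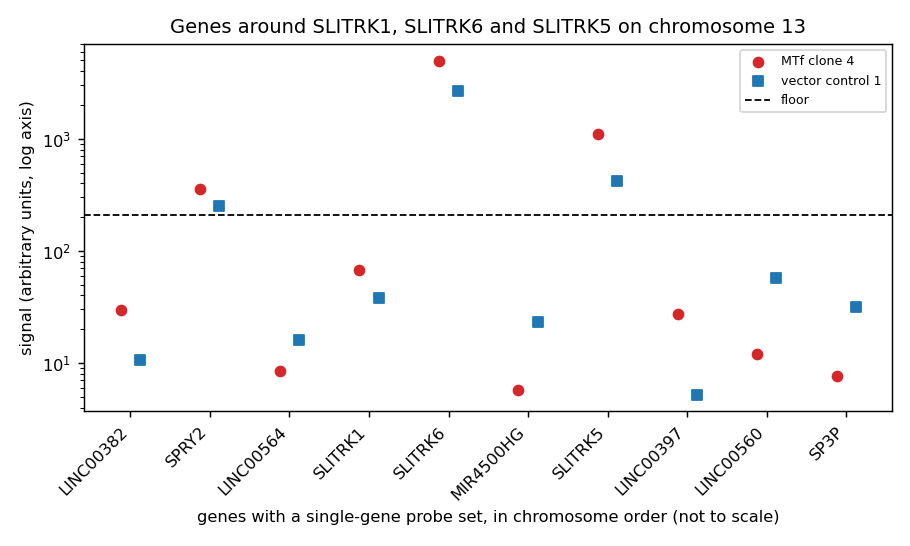
Signal (log axis, arbitrary units) of 10 genes around SLITRK1, SLITRK6 and SLITRK5 on chromosome 13, in gene order and not to scale, with circles for the melanotransferrin clone and squares for the vector control, 1 array each. SPRY2, SLITRK6 and SLITRK5 lie above the dashed floor of 208 on both arrays and the other 7 below it.

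The presynaptic partners of the family were led by PTPRF and PTPRS. Of 9 genes for LAR-type phosphatases and the liprins that bind them, 6 were measured, with 0 at least 1.5-fold higher and 3 at least 1.5-fold lower. Over all measured genes these shares were 5.38% and 8.43%. The counts of this list and of the lists below stand beside the same shares, and nothing is read from lists this short. PTPRF read 10021.8 in the clone and 8603.9 in the control, and its 4 probe sets ran from -0.33 to 0.48 on the log2 scale. PTPRS read 7335.9 in the clone and 6605.4 in the control, a log2 ratio of 0.15. Neither phosphatase was past 1.5-fold on its brightest probe set. PTPRD, the phosphatase that SLITRK3 binds in mouse neurons, was below the floor on both arrays on all of its probe sets, the brightest at 9.1 in the clone and 63.8 in the control. The 3 genes at least 1.5-fold lower on their brightest probe set were PPFIA2, PPFIA3 and PPFIBP1, which encode liprins, scaffolds behind these receptors. They are named here because of their values, as are PTPRD and the further genes marked so below. PPFIBP1 read 604.5 in the clone and 1126.3 in the control, PPFIA3 750.5 in the clone and 1244.2 in the control, and PPFIA2 222.4 in the clone and 396.1 in the control. Further probe sets of PPFIA3 and PPFIA2 did not show this. For PPFIA3, 215280_s_at gave a log2 ratio of only -0.045. For PPFIA2, 1558295_a_at read 225.4 in the clone and 142, below the floor, in the control, the opposite direction. The median of the list was -0.45, against -0.022 over all measured genes.

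Other postsynaptic proteins that bind the same phosphatases showed mixed directions. Of 9 genes 7 were measured, 1 of them at least 1.5-fold higher and 1 at least 1.5-fold lower, with a median log2 ratio of -0.26. IL1RAP, a coreceptor of interleukin 1 that also acts at synapses, read 3822.7 in the clone and 5619.3 in the control, a log2 ratio of -0.56, and its other probe set stood at -0.023. LRFN4, a leucine-rich synaptic adhesion protein, read 765.8 in the clone and 866 in the control. The higher gene, named for its value, was LRRC4B, another leucine-rich repeat ligand of these receptors. It read 483.5 in the clone and 248 in the control, 1.95-fold higher on 1 probe set. The lower gene, also named for its value, was the neurotrophin receptor gene NTRK3, with 57.9 in the clone, below the floor, and 365.3 in the control on probe set 217377_x_at. This rests on 1 of 9 NTRK3 probe sets, and one whose name marks possible shared sequence. The other 8 were below the floor on both arrays, and 2 of them had the higher value in the clone.

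Among 24 further genes for leucine-rich repeat membrane proteins of neurons, 21 had a probe set and 16 were measured, with a median log2 ratio of 0.057. Of these, 2 were at least 1.5-fold higher and 0 at least 1.5-fold lower on the brightest probe set. Both higher genes belong to the LINGO family, membrane proteins with leucine-rich repeats and an immunoglobulin domain, of which LINGO1 is known to inhibit axon growth and myelination. LINGO2 on chromosome 9 read 640.7 in the clone and 234.9 in the control, 2.73-fold higher, with a second probe set below the floor on both arrays. LINGO1 on chromosome 15 read 4983.1 in the clone and 2808.1 in the control, 1.77-fold higher on its 1 probe set. The brightest members, FLRT2 and FLRT3, which are adhesion proteins and ligands of axon guidance receptors, were not past 1.5-fold on their brightest probe sets. FLRT2 read 17971.9 in the clone and 18013 in the control on that probe set. Its other probe sets were higher in the clone: 204358_s_at read 6879.2 in the clone and 4268.8 in the control, and 240259_at read 2228.1 in the clone and 964.4 in the control, log2 ratios of 0.69 and 1.21. The FLRT2 probe sets thus disagree on whether the gene was past 1.5-fold. FLRT3 read 6821.9 in the clone and 8353.5 in the control.

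Over the 2 arrays, the gene nearest to SLITRK6 in its pair of log2 signals was LINGO1, at a Euclidean distance of 0.072. LINC01503, a long non-coding RNA gene on chromosome 9, followed at 0.091 and LIPI, a lipase gene on chromosome 21, at 0.12. LINC01503 read 5292.8 in the clone and 2714.3 in the control. LIPI read 4896.1 in the clone and 2892 in the control. With 2 arrays this likeness covers only a pair of signals, and signals of different probe sets do not measure relative amounts of transcript.

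The list of SLIT and ROBO genes held 1 measured member at least 1.5-fold higher, ROBO2, named for its value. The list of TRK receptors and neurotrophins held 1 at least 1.5-fold lower, NTRK2, also named for its value. NTRK3, counted above among the partners of the phosphatases, was likewise at least 1.5-fold lower, as a bound on 1 probe set. Of 10 genes for SLIT ligands, ROBO receptors and the GTPase-activating proteins downstream of them, 7 were measured, with a median log2 ratio of 0.094. ROBO1, a SLIT receptor, read 3753.8 in the clone and 3516 in the control, and SLIT2, one of its ligands, 1015.8 in the clone and 1009.3 in the control. ROBO2, another SLIT receptor, read 781.9 in the clone and 493.9 in the control. Further ROBO2 probe sets did not show this. Probe set 240425_x_at read 130, below the floor, in the clone and 288.4 in the control, the opposite direction. Probe set 226709_at was nearly equal at the floor, with 212.9 in the clone and 207.5 in the control. Of the 11 genes listed for neurotrophin receptors, neurotrophins and sortilins, 6 had a probe set and 2 were measured. NGFR, the shared low-affinity neurotrophin receptor, read 1234.4 in the clone and 1468.3 in the control. NTRK2, the BDNF receptor, read 204.8 in the clone, below the floor, and 346.5 in the control, a bound of at least 1.67-fold lower. The other 5 NTRK2 probe sets were below the floor on both arrays.

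Other synaptic adhesion and scaffold genes held no member at least 1.5-fold higher, against 5.38% of all measured genes. With so few genes measured, none past this ratio sets them apart from other genes. Of 11 genes for neurexins, neuroligins and cerebellins, 4 were measured, with a median log2 ratio of -0.092. NLGN4X, a neuroligin, read 8012.3 in the clone and 6138.3 in the control. Its other probe set, 1554689_a_at, went the other way, with 1284.1 in the clone and 1564.9 in the control. NLGN2, the neuroligin of inhibitory synapses, read 688.3 in the clone and 868.9 in the control. Of 16 genes for postsynaptic scaffolds 9 were measured, 2 of them at least 1.5-fold lower, with a median of -0.11. The scaffold genes DLG1 and HOMER1 stood at 0.11 and -0.23 on the log2 scale. The 2 lower genes, named for their values, were SHANK3, with 320.6 in the clone and 577.9 in the control, and HOMER3, with 621.3 in the clone and 1087.9 in the control. The other SHANK3 probe set was below the floor on both arrays, with the higher value in the clone. The 7 genes for 14-3-3 proteins, adaptors that bind the tail of SLITRK1, were all measured and ran from -0.33 to 0.24, with YWHAQ at -0.014 and YWHAG at -0.12. The ratios of SLITRK3, SLITRK5 and SLITRK6 had a median of 0.96, but lists and family differ in how they were chosen and no test sets them apart.

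**Figure D4:**
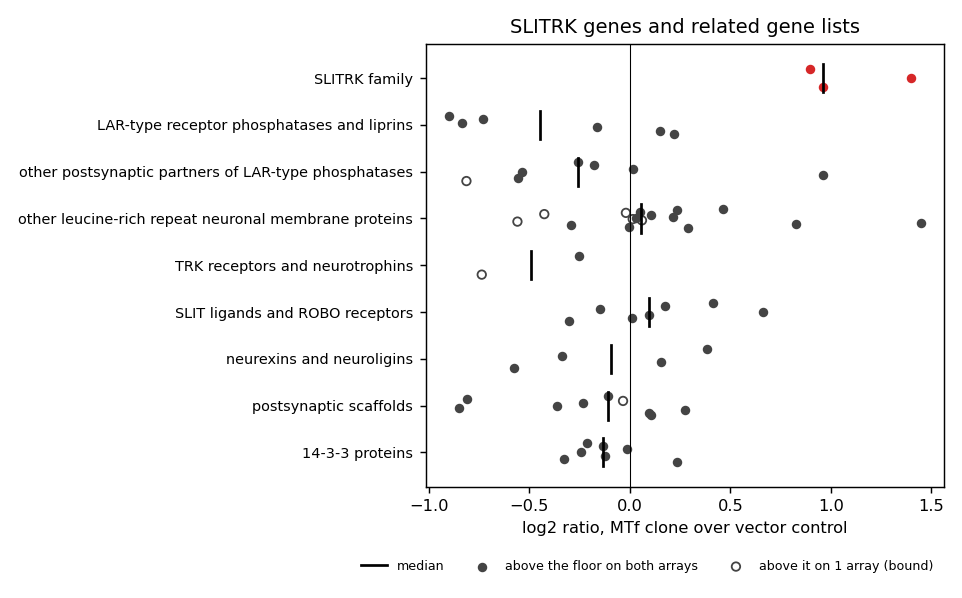
Log2 ratio of the melanotransferrin clone over the vector control for the 3 measured SLITRK genes (red) and the measured members of 8 gene lists, with filled points above the floor on both arrays, open points for bounds and a bar at each median. The SLITRK points lie between 0.90 and 1.40, while the list medians lie between -0.49 and 0.094.

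Marker genes of 9 cell types were read to check the labelled line, and those named here are named for their values. All 7 Ewing tumour markers with a probe set lay above the floor on both arrays. Their summed signal was 167920 in the clone and 140262 in the control. Of them 1 was at least 1.5-fold higher, PAPPA, with 16605 in the clone and 8348.5 in the control. STEAP1 read 33977.9 in the clone and 24514.1 in the control, 1.39-fold higher. Markers of other cell types were also present. Of 7 fibroblast markers 6 lay above the floor on both arrays, and PDGFRA was below it. The list had a summed signal of 46971 in the clone and 48840 in the control. Its collagen genes went different ways. COL1A1 read 10279.1 in the clone and 15581.8 in the control, 1.52-fold lower. COL1A2 read 7899.9 in the clone and 5040.5 in the control, 1.57-fold higher. COL3A1 read 12187.8 in the clone and 12047.3 in the control. The leukocyte marker PTPRC read 13943 in the clone and 15581 in the control, while the other 3 leukocyte markers with a probe set (CD3E, CD14 and LYZ) were below the floor on both arrays. Of 10 neuronal markers 7 were measured, and their list had a summed signal of 19975 in the clone and 21119 in the control, of which the tubulin gene TUBB3 made up most. The neuronal markers STMN2, SYT1 and RBFOX3 were below the floor on both arrays. GAP43 read 1418.7 in the clone and 2613.3 in the control, 1.84-fold lower. DCX went the other way, with 404.5 in the clone and 85.7, below the floor, in the control, a bound of at least 1.94-fold higher. Of 6 epithelial markers 4 were below the floor on both arrays. The keratin gene KRT18 made up most of the summed signal of 10865 in the clone and 10755 in the control. The other measured one, KRT8, read 245.6 in the clone and 509.9 in the control, 2.08-fold lower. Glial, melanocyte and endothelial markers each had 2 measured members. Glial S100B read 756.4 in the clone and 630.2 in the control. MBP read 190.1, below the floor, in the clone and 421.6 in the control. Another MBP probe set stood at -0.23 on the log2 scale. Melanocyte MITF read 506.7 in the clone and 318.4 in the control. PMEL read 109.8, below the floor, in the clone and 217.6 in the control. Endothelial PECAM1 read 235 in the clone and 435.7 in the control. CDH5 read 424.8 in the clone and 169.2, below the floor, in the control. The 5 hepatocyte markers were below the floor on both arrays. Fewer cells of a type and less RNA per cell cannot be told apart in such bulk RNA, and no part of these markers in the SLITRK ratios was tested.

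The gene values of the 3 measured genes kept their direction under all processing settings tried, but not their size. Over 13 settings, including the deposited scaling, SLITRK5 ranged from 1.73-fold to 3.74-fold higher in the clone. SLITRK3 ranged from 1.28-fold to 2.76-fold, and SLITRK6 from 1.22-fold to 2.64-fold. Both ends of each range came from centring on spiked-in transcripts, which moves all genes by the same amount. Centring on the poly-A spikes moved the log2 bound of the second SLITRK5 probe set, 215469_at, from 0.29 to -0.32. The direction of that probe set was thus not settled under this setting.

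**Figure D5:**
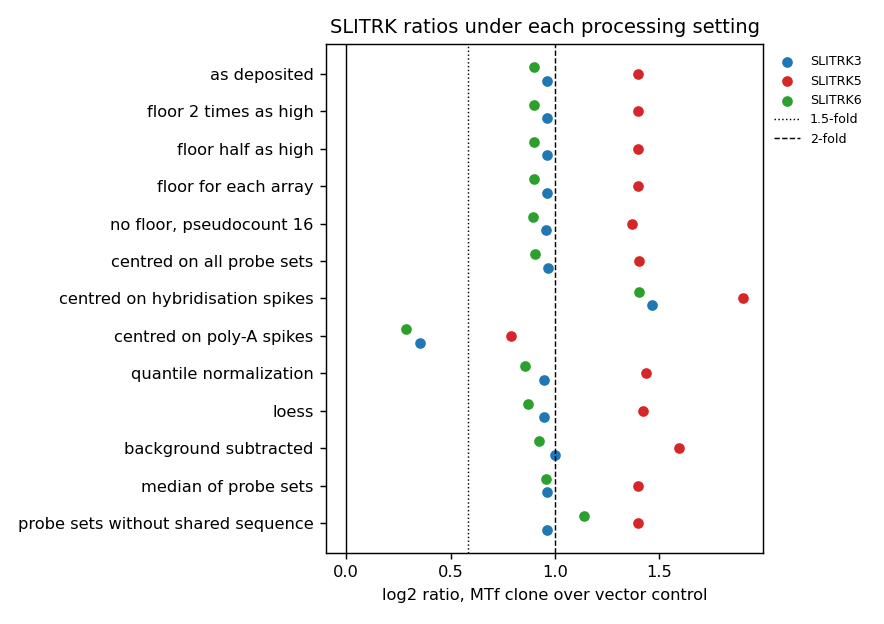
Log2 ratio of the melanotransferrin clone over the vector control for SLITRK3, SLITRK5 and SLITRK6 under each of 13 processing settings, with lines at 1.5-fold (dotted) and 2-fold (dashed). All points lie right of 0, and centring on the poly-A spikes leaves SLITRK5 alone past 1.5-fold.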

How the data were processed

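The authors deposited linear intensity values, a single signal for each probe set of each array. GCOS 1.3 was used per the submitters' processing notes, while the summary method and scaling target are not stated in the labels. From the values, both arrays had been scaled to a mean of 1000.12 after trimming 2% at each end. Groups came from the sample labels. Genes were named from the platform annotation of 2016, and their symbols were updated by gene ID through RefSeq (GRCh38.p14), which held 41043 of 41097. The brightest probe set, by its mean over the arrays, stood for a gene. Genes under the floor on each array were left unmeasured. If only 1 array reached the floor, the floor replaced the other value and the ratio is a bound. With 1 array per group no test was run, and genes were counted at ratios of 1.5 and 2; precision is limited by the number of arrays.

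The members, gene lists and alternatives were chosen with earlier results of these data known. The text names all members and their probe sets, MELTF, list members at least 2-fold apart, the 2 brightest of each list, up to 3 neighbours on either side, and the 3 genes nearest in level to the brightest member; the text marks other genes as named for their values. Calculations used Python 3.11.15, numpy 2.4.6, pandas 2.3.3, statsmodels 0.14.6 (loess) and matplotlib 3.10.9, and the ratio and floor steps were tested on simulated data.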

Additional observations from a re-analysis of the deposited data

How the results depend on the processing

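The gene values of SLITRK3, SLITRK5 and SLITRK6 were higher in the clone under all 12 alternatives, but not every alternative could change them. Settings that only moved the floor left all of these ratios as deposited, because the signals lay above each floor tried. The median of probe sets and the probe sets without shared sequence also left SLITRK3 and SLITRK5 unchanged. Centred on the hybridisation spikes, which moved all log2 ratios by 0.50, they stood at 1.46, 1.90 and 1.40 and 3 members were at least 2-fold higher. Centred on the poly-A spikes, which moved them by -0.61, they stood at 0.35, 0.79 and 0.29, 1 member was at least 1.5-fold higher and 0 at least 2-fold. Of the genes above the floor on both arrays, 39.6% were at least 1.5-fold higher in the first case, 0.528% in the second and 5.27% as deposited. At least 2-fold higher were 2 members with background subtracted (SLITRK3 just passing) and 2 on probe sets without shared sequence (SLITRK6). With a floor 0.5 times as high, 1 member was at least 1.5-fold lower (SLITRK2, a bound). With no floor and a pseudocount of 16, 2 members were at least 1.5-fold lower and the same 2 at least 2-fold lower (SLITRK2 and SLITRK4). Under that setting 4 were at least 1.5-fold higher, with SLITRK1 added at 1.56-fold. The signals of SLITRK1, SLITRK2 and SLITRK4 are ones the negative probe sets also reach. Of the 84 values and counts, 70 were within the pooled probe set SD of 0.35 (log2) or within 1.5 times the deposited count. The count of 4 was among these. No paired analysis was possible because each group has 1 array and the labels share no replicate number; for the same reason no array could be left out.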
